A study of Mus musculus with 12 samples.

Results

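Mesothelial marker genes were examined in thoracic aorta of ApoE-/- mice. They are 9 genes, Msln, Upk3b, Upk1b, Lrrn4, Wt1, Gpm6a, Krt8, Krt18 and Krt19, taken by symbol from the table of raw read counts, and all 9 listed symbols were found among its 25284 genes. The question was how much of the lining of the pleura or pericardium came with the aorta of each mouse, and whether treatment groups differed in it. Total RNA from the thoracic aorta of 12 male mice was sequenced at 18 weeks of age. All 12 mice lacked apolipoprotein E, carried a C57BL/6 background, were fed a high fat diet enriched in cholesterol, and received subcutaneous osmotic minipumps for 8 weeks. The pumps delivered AZ6983, an agonist of the α7 nicotinic acetylcholine receptor, at 50 µmol per kg per day in 6 mice (called A1 to A6) and vehicle, cyclodextrin in saline, in 6 controls (C1 to C6). RNA was extracted from the dissected, frozen vessel without sorting of cells, so any tissue left on it is part of each library.

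Mesothelium is the single layer of flat epithelial cells that covers the lungs, the heart and the walls of the body cavities. It arises from mesoderm and joins features of both epithelium and mesenchyme, since it holds keratin filaments together with the transcription factor Wt1. The thoracic aorta runs behind the parietal pleura and leaves the heart inside the pericardium, and sheets of this lining can stay on the adventitia during dissection. The genes fall into 4 kinds: surface proteins (Msln, Upk3b, Upk1b, Lrrn4), a transcription factor (Wt1), a membrane glycoprotein shared with neurons (Gpm6a), and keratins shared with many epithelia (Krt8, Krt18, Krt19).

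Counts on genes ranged from 23810036 in A3 to 35864666 in A4, with a median of 28317852.5 in controls and 27406754.5 in AZ6983 mice. Levels are in CPM, the count of a gene relative to the counts of its library on the 15857 genes that were tested. They are given after TMM normalization, which sets the scale without the most extreme genes. Of the AZ6983 libraries 2 stood apart in these genes: A3 was low in the surface proteins, and A4 was high in keratins and in thymus genes. Fold changes, intervals and sums that rest on either library are therefore given with and without it. The column used for A1 carries 3 of the 4 digits of its mouse number, and values without A1 are part of the ranges in the closing section.

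The positions of the genes follow GENCODE M21 on GRCm38, the build that the submitters name as mm10. Msln lies at chr17:25748613-25754378 on the minus strand, Upk3b at chr5:136038496-136046487 on the plus strand and Upk1b at chr16:38773184-38800328 on the minus strand. Lrrn4 (chr2:132868305-132880891, minus) and Wt1 (chr2:105126529-105173616, plus) share a chromosome but not a neighbourhood. Gpm6a lies at chr8:54954843-55060871 on the plus strand, and Krt19 at chr11:100140810-100148665 on the minus strand. Krt8 (chr15:101996698-102004482, minus) and Krt18 (chr15:102028180-102032027, plus) are neighbours that point away from each other, with 23698 bases between their starts. The gene Wt1os, antisense to the Wt1 locus and on the minus strand, starts 19 bases before the start of Wt1 and points away from it. The strand setting of the counting is not given in the sources used here, and Wt1os held at most 3 counts in any mouse.

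RefSeq promoter windows of GRCm38.p6, 250 bases before to 50 after a start, were given for 5 of the 9 genes (Upk3b, Lrrn4, Krt8, Krt18 and Gpm6a). The parts before the annotated first base are shown for 2 surface proteins whose levels moved together over the mice and for the 2 neighbouring keratins that stood apart in A4. They read 5′ to 3′ on the strand of the gene, and capitals mark the letters GGAATG or their reverse CATTCC, which TEAD factors are known to bind.
Upk3b (chr5:136038246-136038495, plus): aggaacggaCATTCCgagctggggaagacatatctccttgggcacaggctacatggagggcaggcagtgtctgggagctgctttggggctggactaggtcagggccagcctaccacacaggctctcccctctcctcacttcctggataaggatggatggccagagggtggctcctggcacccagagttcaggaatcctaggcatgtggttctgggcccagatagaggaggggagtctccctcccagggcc
Lrrn4 (chr2:132880892-132881112, minus): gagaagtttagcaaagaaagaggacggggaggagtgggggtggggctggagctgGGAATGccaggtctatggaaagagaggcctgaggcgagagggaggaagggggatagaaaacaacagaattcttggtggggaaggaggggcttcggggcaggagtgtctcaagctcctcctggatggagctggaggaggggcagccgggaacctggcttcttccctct
Krt8 (chr15:102004483-102004592, minus): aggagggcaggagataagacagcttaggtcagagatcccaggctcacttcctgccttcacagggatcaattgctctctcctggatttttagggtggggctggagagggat
Krt18 (chr15:102027966-102028179, plus): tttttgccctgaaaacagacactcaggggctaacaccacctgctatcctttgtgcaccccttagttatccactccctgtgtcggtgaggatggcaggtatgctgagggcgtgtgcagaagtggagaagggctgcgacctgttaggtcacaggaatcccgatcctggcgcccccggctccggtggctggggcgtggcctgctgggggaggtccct
The letters lay 241 bases before the start in Upk3b and 196 before the RefSeq start in Lrrn4. They were also found 125 bases before the start in 1 of the 2 windows of Gpm6a, and in neither keratin window. Among 32851 windows of the same length, 14.7% held them on either strand. The letters GGGCGG of a GC box, searched the same way, were in 35.7% of all windows and, among these genes, only in 1 window of Gpm6a. A match describes the letters in a window and shows no binding.

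Msln encodes mesothelin, a surface protein anchored to the mesothelial membrane. Its CPM was 2.06, 4.96 and 6.51 (lowest, median and highest) in the 6 controls. In the 6 AZ6983 mice it was 0.431, 5.58 and 7.34. The lowest value was that of A3, with 11 counts, while A4 and A5 lay above every control, so that the groups overlapped. The place of A5 rests on its TMM factor of 0.837, the lowest of all mice. By library total alone A5, with 176 Msln counts in 29275555, lay below C4, with 175 in 26818096. The log2 fold change of AZ6983 against control was 0.17 with an SE of 0.491 (edgeR, adjusted p = 0.917). The difference in mean log2 CPM gave p = 0.942 in an exact permutation test (two-sided, 6 against 6 mice, smallest possible p 0.00216). Without A3 the log2 fold change was 0.41 (edgeR, adjusted p = 0.624), and the difference in mean log2 CPM changed from -0.067 to 0.53 (exact permutation p = 0.186, 5 against 6 mice). In whole tissue, fewer mesothelial cells and less of this RNA per cell cannot be told apart.

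Upk3b and Upk1b encode uroplakins, membrane proteins first known from the bladder and also made by mesothelium. The CPM of Upk3b was 3.0, 7.08 and 15.7 in controls and 0.392, 7.69 and 10.8 in AZ6983 mice (lowest, median and highest). For Upk1b these values were 0.693, 1.18 and 2.83 in controls and 0.0392, 1.32 and 2.74 in AZ6983 mice. The lowest mouse of both was A3, in which Upk3b had 10 counts and Upk1b had 1, and the highest was the control C4. The log2 fold change was -0.16 (SE 0.569, edgeR adjusted p = 0.935) for Upk3b and 0.03 (SE 0.577, edgeR adjusted p = 0.991) for Upk1b. Without A3 it was 0.08 for Upk3b (edgeR adjusted p = 0.952) and 0.28 for Upk1b (edgeR adjusted p = 0.798). Of the uroplakins listed as bladder genes, Upk1a stayed at or below 0.138 CPM in every mouse, and Upk2 and Upk3a were not among the 25284 genes.

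Lrrn4, a neuronal leucine-rich repeat membrane protein that is also a surface marker of mesothelium, had a CPM of 1.73, 3.55 and 6.70 in controls. In AZ6983 mice it was 1.8, 5.04 and 6.29, which lies within the range of the controls for every mouse. Its log2 fold change was 0.31 (SE 0.364, edgeR adjusted p = 0.771), and the exact permutation test gave p = 0.400. Without A3 these were 0.47 (edgeR adjusted p = 0.606) and p = 0.143 in the exact permutation test. A3 was again the lowest of the AZ6983 mice, but at 1.8 CPM it was above C5.

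Wt1 is the transcription factor by which mesothelium and its derivatives are traced in development. It had the fewest reads of the 9 genes for its length, with 0.347, 0.772 and 1.04 CPM in controls and 0.392, 0.787 and 1.14 CPM in AZ6983 mice. The counts behind these values were 10 to 28 in controls and 10 to 43 in AZ6983 mice. The log2 fold change was 0.16 (SE 0.298, edgeR adjusted p = 0.868), and 0.29 without A3 (edgeR adjusted p = 0.689).

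Gpm6a encodes a membrane glycoprotein of neurons that is also abundant in mesothelium, and its level was the steadiest of the 9. Its CPM was 10.3, 12.2 and 15.6 in controls and 9.01, 13.0 and 15.9 in AZ6983 mice. The highest mouse held 1.76 times the level of the lowest, against 17.0 times for Msln and 40.1 times for Upk3b. The log2 fold change of Gpm6a was 0.04 (SE 0.147, edgeR adjusted p = 0.936). The summed CPM of 7 neuron and Schwann cell genes, which share Gpm6a as a marker, ranged from 12.9 in C1 to 499 in C3. Gpm6a was 12.2 CPM in C1 and 15.6 CPM in C3. The part of nerve in the level of Gpm6a was not tested.

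Krt8 and Krt18 form the filament pair of simple epithelia. The CPM of Krt8 was 0.277, 0.838 and 2.38 in controls and 0.353, 0.856 and 33.4 in AZ6983 mice, and that of Krt18 was 3.40, 6.18 and 7.69 in controls and 2.94, 4.44 and 47.0 in AZ6983 mice. The highest values of both belonged to A4, with 1257 counts of Krt8 and 1767 of Krt18, while the other 5 AZ6983 mice reached at most 1.19 CPM of Krt8 and 6.94 CPM of Krt18. With A4 the log2 fold change was 2.65 for Krt8 (SE 1.12, unadjusted p = 0.0340, edgeR adjusted p = 0.471) and 0.98 for Krt18 (SE 0.649, edgeR adjusted p = 0.587). Without A4 it was -0.36 for Krt8 (edgeR adjusted p = 0.816) and -0.40 for Krt18 (edgeR adjusted p = 0.638). The direction of both thus turned on 1 library.

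Krt19, the smallest keratin and a marker of simple epithelia, followed the surface proteins more closely than the other keratins. Its CPM was 0.830, 1.90 and 2.94 in controls and 0.705, 1.56 and 3.88 in AZ6983 mice. A4 was the highest mouse, at 2.72 times the median of the other 11, and A3 the lowest. The log2 fold change was -0.08 (SE 0.417, edgeR adjusted p = 0.960) with all mice and 0.08 (adjusted p = 0.953) without A3, and the groups overlapped.

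**Figure D1:**
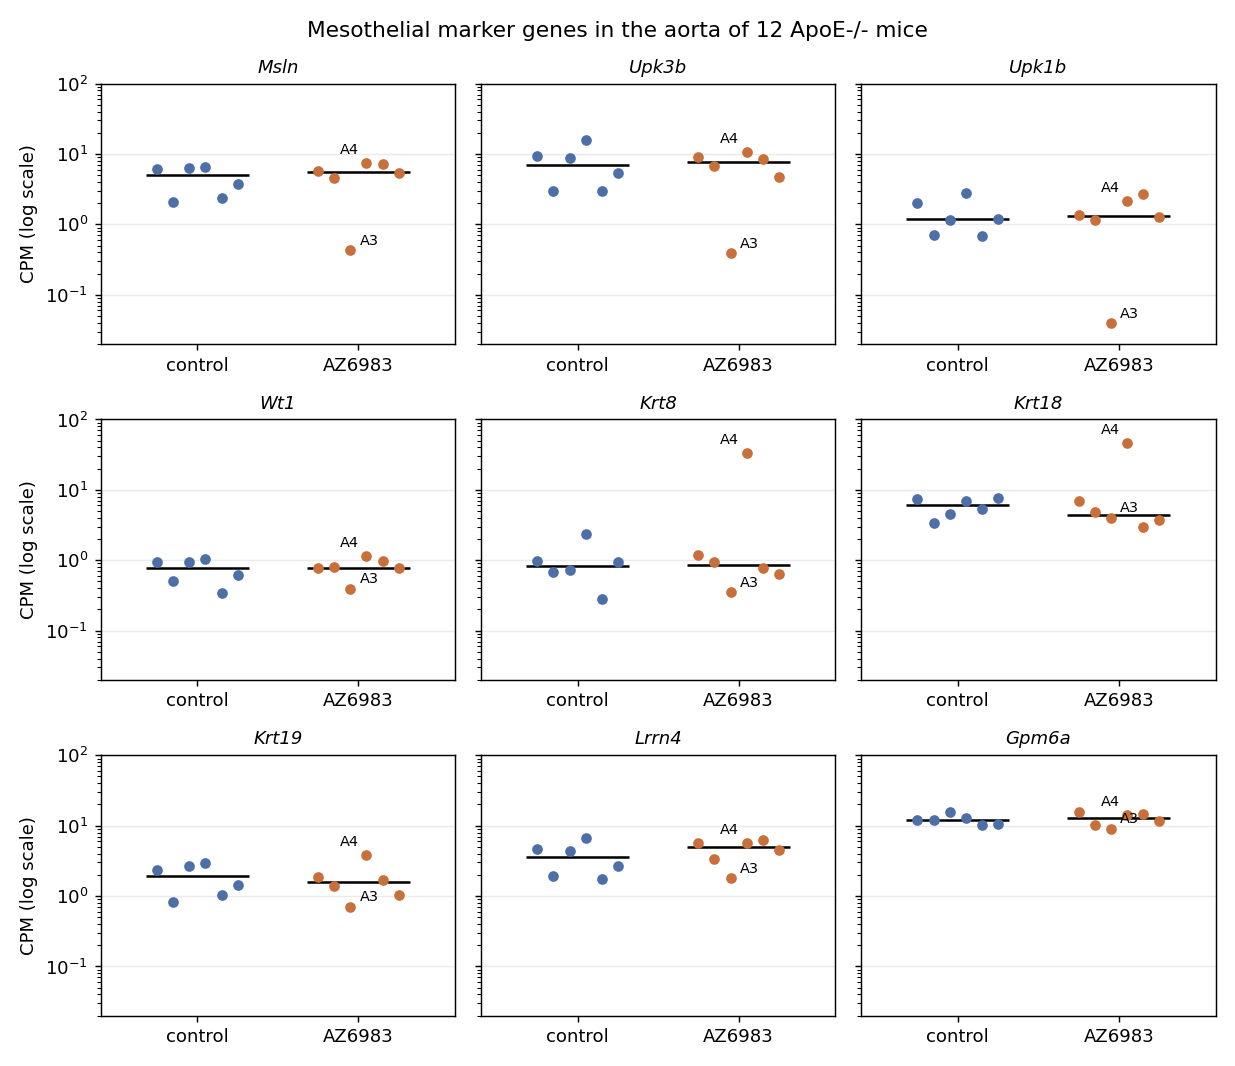
CPM of the 9 mesothelial marker genes on a log axis, with 1 point per mouse (6 controls, 6 AZ6983) and a bar at the group median. A3 lies at 0.431 CPM of Msln, 0.392 of Upk3b and 0.0392 of Upk1b, below the other 11 mice, and A4 at 33.4 CPM of Krt8 and 47.0 of Krt18, above them.

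To compare levels between genes, CPM was divided by the exon length in kilobases. On this scale the medians over 12 mice were 3.79 for Gpm6a, 3.57 for Krt18, 2.18 for Upk3b, 1.82 for Msln, 1.20 for Lrrn4, 0.848 for Krt19, 0.588 for Upk1b, 0.437 for Krt8 and 0.127 for Wt1. The order of some neighbours was not stable from mouse to mouse, since Gpm6a lay above Krt18 in 6 of 12 mice and Lrrn4 above Krt19 in 7 of 12. Upk3b lay above Msln in 10 of 12 mice, Msln above Lrrn4 in 11 of 12 and Krt8 above Wt1 in 12 of 12. Krt18 had a higher level per kilobase than its filament partner Krt8, with medians of 3.57 and 0.437. On the same scale the vessel wall stood far above the lining: the smooth muscle myosin Myh11 had a median of 798, the endothelial gene Pecam1 one of 76.2 and the fibroblast receptor Pdgfra one of 17.3.

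Over all 12 mice, 9 of the 9 genes passed the filter on low counts and 0 of 9 were called at 10% FDR by edgeR, where 0% of the 15857 genes tested were called. DESeq2, which called 0.523% of 17592 genes, and limma-voom, which called 0%, called 0 of the 9 as well. DESeq2 returned no p for Krt8 and Krt18. At an unadjusted p under 0.05, edgeR counted 1 of the 9, Krt8, against 10.2% of all genes tested, and DESeq2 and limma-voom counted 0, against 7.91% of the 24866 genes to which DESeq2 gave a p and 9.54% of all genes tested in limma-voom. All 9 genes overlapped between the groups, whereas 0.41% of all genes tested did not. Of the log2 fold changes 7 were above 0 and 2 below, with a median of 0.16 against 0.01 over all genes tested. Without A4 the median was -0.13, and without A3 it was 0.29.

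A difference that misses the threshold does not show equal amounts of lining. The 95% interval of limma-voom for the fold of AZ6983 over control was 0.393 to 2.40 for Msln, 0.276 to 2.22 for Upk3b and 0.251 to 2.39 for Upk1b. The width of these intervals rested on A3, without which they were 0.916 to 2.30 for Msln, 0.676 to 2.26 for Upk3b and 0.746 to 2.30 for Upk1b. With or without A3, AZ6983 mice with 2 times the level of controls lay inside all 3 intervals. The narrowest interval was that of Gpm6a, at 0.821 to 1.27, and that of Lrrn4 was 0.747 to 2.26, or 0.937 to 2.47 without A3. For Krt8 the interval was 0.412 to 8.84 with A4, and -1.19 to 0.85 on the log2 scale without it. Reads placed on no gene were 8.02% to 12.7% of reads in controls and 11.2% to 14.9% in AZ6983 mice. With the no-gene share as a covariate in edgeR, the log2 fold change of all 9 genes was positive, between 0.22 for Gpm6a and 3.96 for Krt8, with adjusted p = 0.9998 for each.

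**Figure D2:**
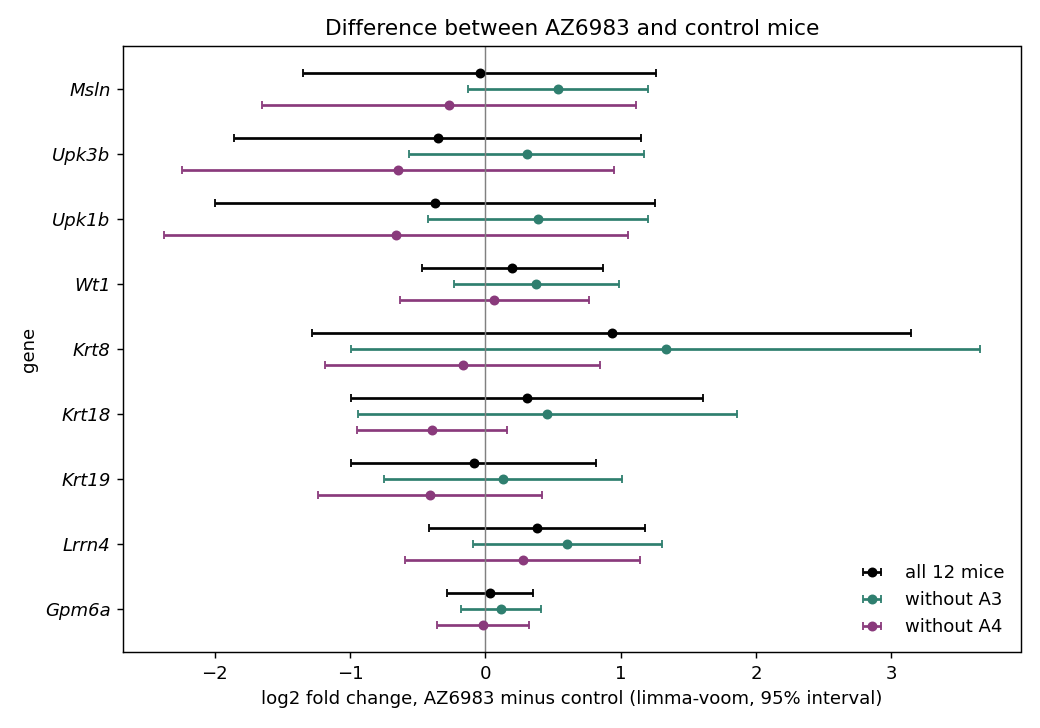
Log2 fold change of AZ6983 against control with its 95% interval (limma-voom) for each of the 9 genes, from all 12 mice, from 11 mice without A3 and from 11 mice without A4. Every interval spans 0. That of Msln narrows from -1.35 to 1.26 with all mice to -0.13 to 1.20 without A3, and that of Krt8 shrinks from -1.28 to 3.14 with A4 to -1.19 to 0.85 without it.

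In A3 the 9 genes were low to unequal degrees. Msln was at 7.40% of the median of the other 11 mice, Upk3b at 4.59% and Upk1b at 3.09%, and the next lowest mouse held 2.06, 3.0 and 0.693 CPM of these genes. Their counts of 11, 10 and 1 carry 95% counting intervals of 5.49 to 19.7, 4.80 to 18.4 and 0.0253 to 5.57 (exact Poisson, counting error only), so that Upk1b is hardly more than the limit of detection. Wt1 was at 49.5% of the median of the others, Krt19 at 41.1%, Lrrn4 at 40.3% and Krt8 at 37.7%. Krt18 at 74.4% and Gpm6a at 73.8% were the closest to the other mice. The library was not low in the vessel wall: its summed CPM of 5 smooth muscle genes was 15810, against 10135 to 17528 over all mice, and that of 3 endothelial genes was 1008, against 766 to 1009.5. It was the lowest of the 12 mice in the lists for cardiac muscle (7.88) and for simple and stratified epithelium (1.49), and next to lowest for brown fat (2311). Its total count was the lowest of the 12.

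A4 differed most from the others in Krt8 and Krt18. Krt8 was 43.1 times and Krt18 9.61 times the median of the other 11 mice. Msln was 1.38 times, Upk3b 1.58 times, Upk1b 1.83 times and Lrrn4 1.27 times that median, all within the range of the other mice except Msln, whose highest other value was 7.19 CPM. Listed markers of thymic epithelium other than Pax1 moved with the keratins in this mouse. Pax1 was at 3.54 CPM in A4, below A2 at 3.74 CPM. Prss16, a protease of cortical thymic epithelium, had 2530 counts in A4 and at most 2 in any other mouse. Psmb11, the thymus proteasome subunit, had 469 counts against at most 1, and Foxn1, the master regulator of thymic epithelium, had 53 against at most 1. Krt5, a keratin of stratified and thymic epithelium, had 252 counts against at most 2, and Epcam 133 against at most 4. The part of thymic epithelium in the keratin level of A4 was not tested.

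**Figure D3:**
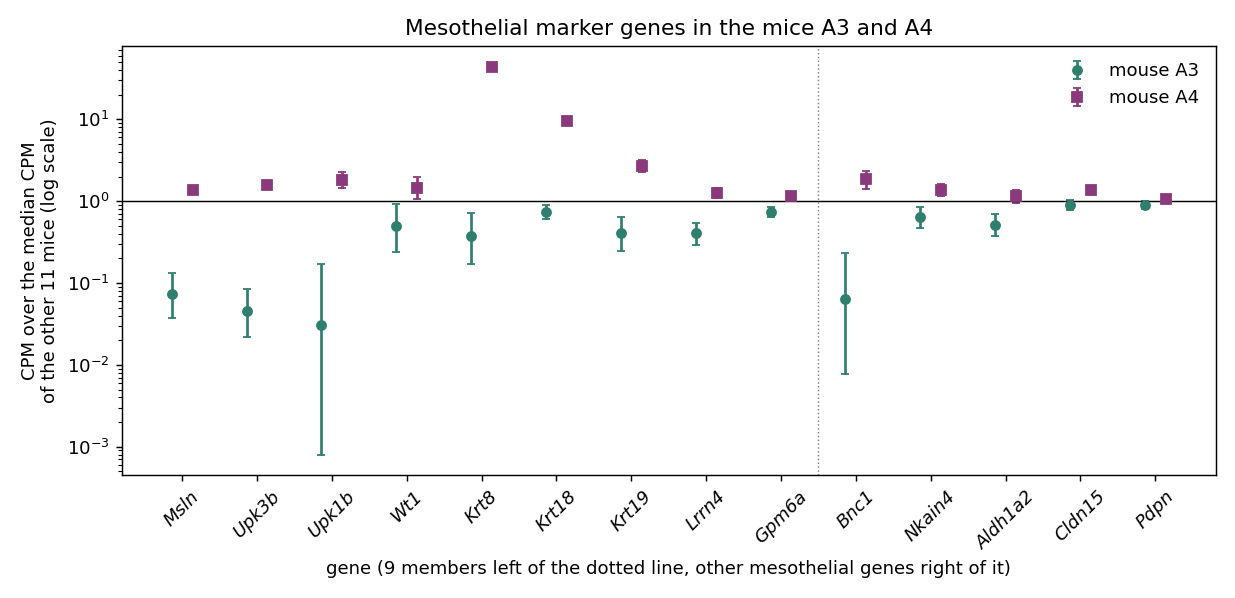
CPM of A3 and of A4 divided by the median CPM of the other 11 mice, on a log axis. The 9 genes and 5 of the 12 other mesothelial genes are drawn. Bars are 95% Poisson counting intervals. A3 is low in Msln, Upk3b, Upk1b and Bnc1 and near 1 in Pdpn, and A4 is at 43.1 in Krt8 and 9.61 in Krt18, between 1.17 and 2.72 in the other 7 marker genes, and between 1.07 and 1.84 in the 5 other mesothelial genes.

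Genes of 1 tissue that comes in varying amounts would vary together over mice, which was examined by correlation. Pearson's r of log2 CPM was positive for all 36 pairs, from 0.23 to 0.97 with a median of 0.73, and 25 pairs had a Benjamini-Hochberg adjusted p below 0.05 in a permutation test over the 36 pairs. The closest 3 pairs were those among Msln, Upk3b and Upk1b. Upk3b and Upk1b had r = 0.97 (permutation p = 7e-05, adjusted 0.00036) and Spearman's rho = 0.85 (permutation p = 0.00107). With Lrrn4, the other surface protein, r was 0.84 for Msln, 0.81 for Upk3b and 0.79 for Upk1b. Msln and Upk3b had r = 0.97 (permutation p = 3e-05, adjusted 0.00024) and Spearman's rho = 0.87 (permutation p = 0.00028), and Msln and Upk1b had r = 0.96 (permutation p = 3e-05, adjusted 0.00024) and rho = 0.88 (permutation p = 0.00033). Without A3 and C2, the mice farthest from the median of Msln, the r of Msln with Upk3b and Upk1b were 0.85 and 0.83. Within the 6 controls they were 0.95 and 0.86, and within the 6 AZ6983 mice 0.98 and 0.99.

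Wt1 and Lrrn4, which had the next highest r, gave 0.93 (permutation p = 4e-05, adjusted 0.00024, rho = 0.84 with permutation p = 0.00132). The value was 0.92 without A3, 0.96 within controls and 0.90 within AZ6983 mice. Krt19 had r of 0.74 to 0.85 with Msln, Upk3b, Upk1b, Wt1 and Lrrn4. Gpm6a had lower r, of 0.65 to 0.74, with the surface proteins, Wt1 and Krt19. With Upk1b its r of 0.65 (permutation p = 0.0129, adjusted 0.0210, rho = 0.62 with permutation p = 0.0347) was 0.44 without A3 and 0.29 within controls. Among the 21 pairs that hold neither Krt8 nor Krt18, the lowest r was 0.65 and all 21 had an adjusted permutation p below 0.05. For some pairs of Gpm6a this rested on A3. Without A3, Gpm6a had an unadjusted permutation p of 0.0862 with Upk3b, 0.172 with Upk1b, 0.0563 with Wt1 and 0.0735 with Krt19. The other pairs of the 21 stayed below 0.05 without A3, unadjusted.

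By Pearson's r, Krt8 and Krt18 were closest to each other, a value that rested on A4. It was 0.90 (permutation p = 0.00576, adjusted 0.0109, rho = 0.69 with permutation p = 0.0159), and without A4 it was 0.48. By rank, Krt8 was closer to Upk3b (rho = 0.88, permutation p = 0.00032) and Krt19 (rho = 0.83, permutation p = 0.00137) than to Krt18. Of the 14 pairs of either with another gene, 3 had an adjusted permutation p below 0.05, at r of 0.23 to 0.74. Without A4, Krt8 had an r of 0.77 with Upk3b and 0.79 with Wt1, against 0.52 and 0.65 with it. In the mice other than A4, Krt8 had 8 to 64 counts. Krt18 had an r of 0.26 with Msln and 0.15 with Wt1 without A4, against 0.33 and 0.40 with it. For Krt18 with Upk3b it was 0.39 without A4 and 0.37 with it.

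**Figure D4:**
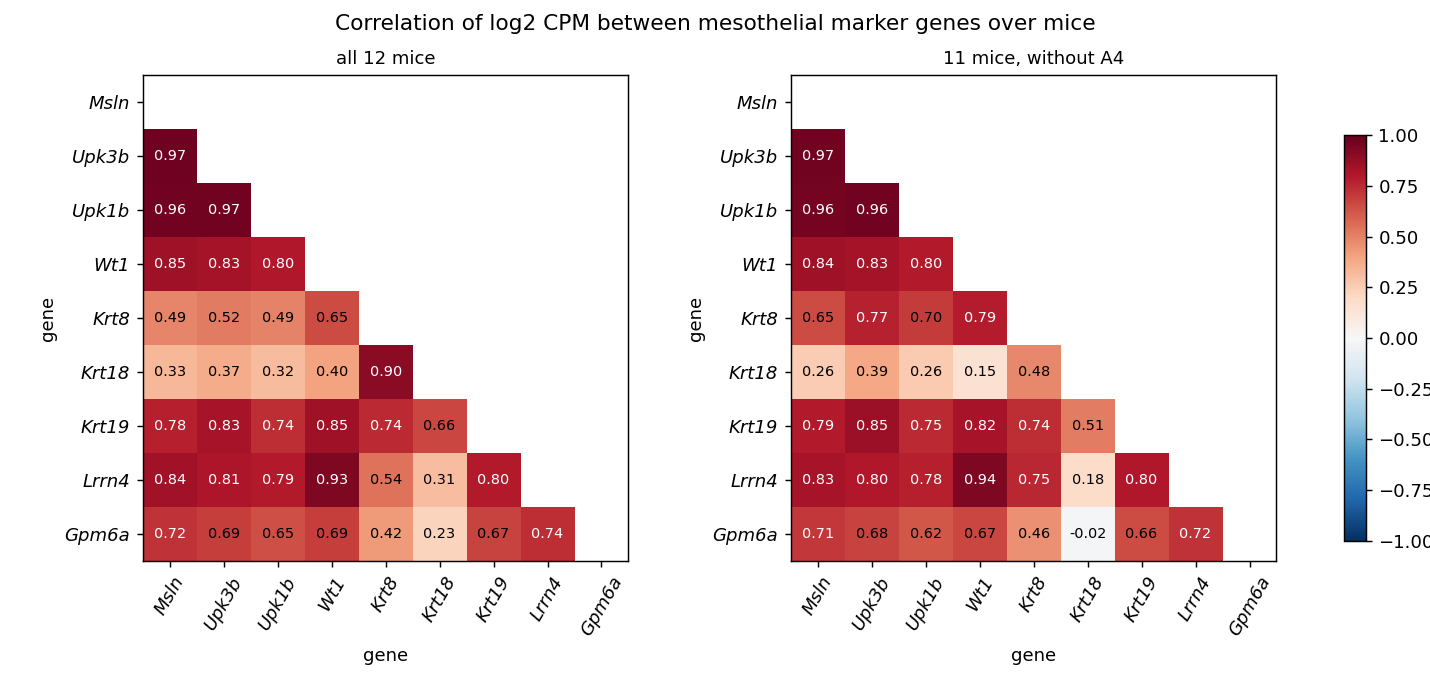
Pearson's r of log2 CPM for the 36 pairs of mesothelial marker genes, over all 12 mice (left) and over the 11 mice other than A4 (right). The surface proteins Msln, Upk3b and Upk1b reach 0.96 or more in both panels, and the pair Krt8 and Krt18 drops from 0.90 to 0.48 without A4.

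The summed CPM of the 9 genes was 25.1, 39.7 and 57.8 in controls (lowest, median and highest), with the lowest value in C5 and the highest in C4. In AZ6983 mice it was 17.1 in A3, 39.9 at the median and 126 in A4, and the highest value without A4 was 48.7. Krt8 and Krt18 made up 64.1% of the sum in A4, at 80.5, against at most 9.38 in any other mouse. The other 7 genes alone summed to 19.4, 31.7 and 48.4 in controls, and to 12.8, 35.0 and 45.1 in AZ6983 mice, with C5 and A3 lowest and C4 and A4 highest of their groups. In A3, Gpm6a alone gave 9.01 of the 12.8, while Msln gave 0.431, Upk3b 0.392 and Upk1b 0.0392. The mean of the standardized log2 CPM, in which each gene weighs the same, placed A3 lowest, followed by C5, C2 and C6, and placed A4 and C4 highest. Mice of both groups thus stood at both ends of the order.

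Of 12 other genes known from mesothelium, 9 passed the filter and 0 were called by edgeR, DESeq2 or limma-voom, with a median log2 fold change of 0.04. At an unadjusted p under 0.05, edgeR counted 1 of these 9, limma-voom 1 and DESeq2 2 of the 12, where the shares of all genes were 10.2%, 9.54% and 7.91%. The smallest edgeR p was that of Rspo1, a secreted enhancer of Wnt signals, with a CPM of 2.09 to 2.90 in controls and 2.56 to 3.96 in AZ6983 mice. Its log2 fold change was 0.41 (SE 0.149, unadjusted p = 0.0168, edgeR adjusted p = 0.450). For Rspo1, 4 of 6 AZ6983 mice lay above all controls. The largest p was that of Nkain4, with a log2 fold change of 0.01 (SE 0.199, edgeR adjusted p = 0.988). The summed CPM of the 12 genes was 31.7 to 49.9 in controls and 34.3 to 47.5 in AZ6983 mice. It covered a narrower range than that of the 9 marker genes, and A3 at 34.3 was the next to lowest of the 12 mice, above C2 at 31.7. Pdpn held the largest part of the sum, at 11.4 to 18.2 CPM. Bnc1, Muc16 and Aldh1a2 were each lowest in A3, and Slpi was next to highest there. Prg4 was lowest in A4, at 2.18 CPM. Several of the 12 genes, among them Pdpn, Aldh1a2 and Prg4, are also made by other cells of the vessel or its surroundings.

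The genes whose pattern was most like that of the 9 were ranked by Pearson's r of their log2 CPM with the mean standardized log2 CPM of the 9 over 12 mice, as a description. First was Bnc1, at r = 0.91, a zinc finger factor of the mesothelium and of stratified epithelium and the 1 gene of the first 12 that is in a list of mesothelial genes. In Bnc1 the CPM was 0.514, 1.16 and 1.74 in controls and 0.0784, 1.04 and 1.76 in AZ6983 mice, with the lowest value, 2 counts, in A3. After it came Slc39a8, a zinc and manganese transporter, at 0.88, Cgn, the tight junction protein cingulin, at 0.87, and Lrp2, the endocytic receptor megalin, at 0.86. The others were Banf1 at 0.85, Cyp2s1 at 0.85, Fhdc1 at 0.85, Bambi-ps1 at 0.84, Sirt6 at 0.84, Med24 at 0.83, Chst4 at 0.82 and Qars at 0.82. Lrp2 was lowest in A3 at 0.0392 CPM and highest in C4 at 3.79 CPM, and Chst4 was lowest in A3 at 0.0784 CPM and highest in C4 at 1.97 CPM. Without A4, 7 of the 12 genes stayed among the first 12, and Banf1, Bambi-ps1, Sirt6, Med24 and Qars did not.

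Tissue beside the aorta was read from lists of marker genes by their summed CPM. Simple and stratified epithelium reached 22.2 in A4 and at most 2.94 elsewhere, thymic epithelium 85.5 in A4 and at most 3.74 elsewhere, and thymocytes 972 in A4 and at most 37.8 elsewhere. Outside A4 the thymic epithelium sum lay almost wholly in Pax1, at 1.70 to 2.48 CPM in controls and 2.53 to 3.74 CPM in AZ6983 mice. The lung list reached 20.2 in A4, of which 15.3 was the club cell gene Scgb1a1, and at most 3.11 elsewhere, while Sftpc, Sftpb and Nkx2-1 had at most 3 counts in any mouse. Cardiac muscle ranged from 10.5 to 187 in controls and from 7.88 (A3) to 124 in AZ6983 mice. The sums were 747 to 1744 for white fat, 2627 to 4360.1 for brown fat, 59.2 to 107 for lymphatic endothelium and 902 to 1179.7 for adventitial fibroblasts in controls, and 1243 to 1815, 2309 to 5561, 79.1 to 92.6 and 753 to 1313 in AZ6983 mice.

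Msln was set against these tissues by Pearson's r. Over 12 mice, its r with the 13 lists and with 2 library measures, total counts and the no-gene share of reads, was -0.22 to 0.61, and 0 of the 15 had an adjusted permutation p below 0.05. The highest were total counts, with r = 0.61 (permutation p = 0.0652, adjusted 0.420, rho = 0.65 with permutation p = 0.0261), and the other mesothelial genes, with r = 0.58 (permutation p = 0.0365, adjusted 0.420, rho = 0.58 with permutation p = 0.0510). For total counts r was 0.70 without A4 (permutation p = 0.0210, unadjusted) and 0.40 without A3 (permutation p = 0.227, unadjusted). By rank, Msln did follow simple and stratified epithelium (rho = 0.83, permutation p = 0.00164, adjusted 0.0246), although Pearson's r was 0.43 with A4 and 0.78 without it. That list holds Krt7, a keratin that mesothelium also makes. With the cardiac muscle list r was 0.21 (permutation p = 0.536, adjusted 0.894, rho = 0.06 with permutation p = 0.851), and with the brown fat list 0.25 (permutation p = 0.472, adjusted 0.894, rho = 0.10 with permutation p = 0.75). Within the 6 controls, Msln had r = -0.82 with the no-gene share of reads (exact permutation p = 0.0181, unadjusted), against 0.13 within the AZ6983 mice.

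**Figure D5:**
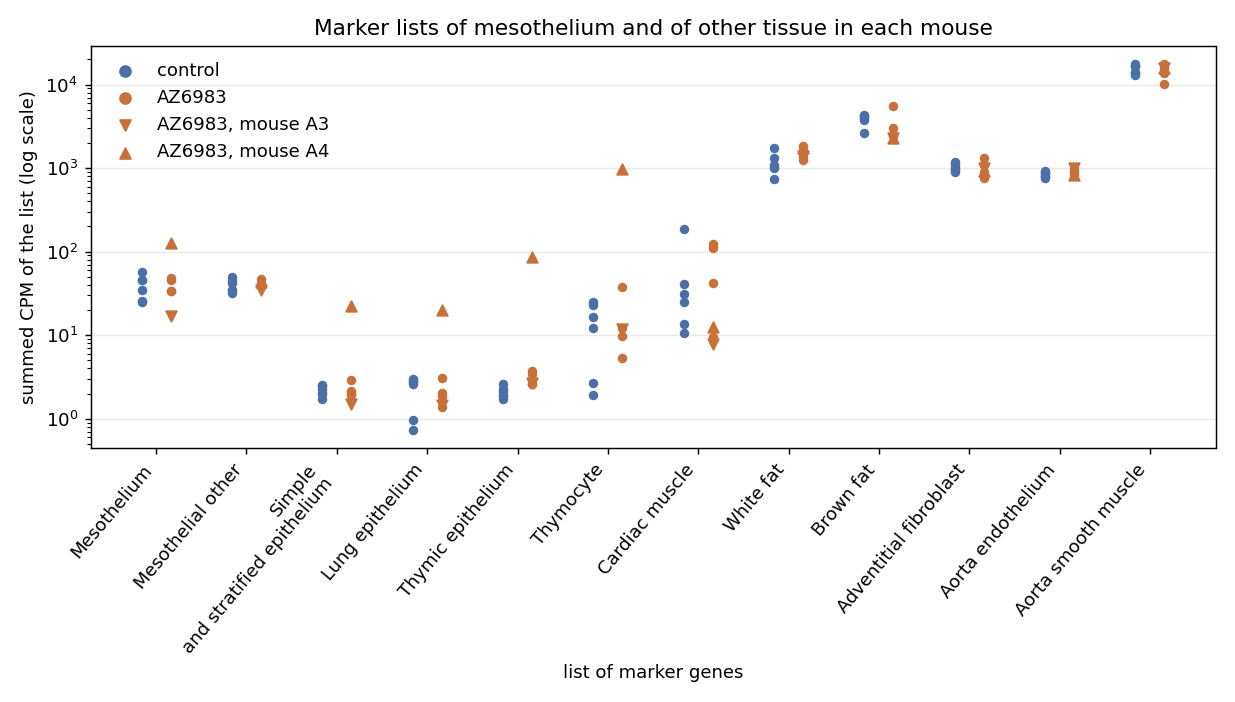
Summed CPM of 12 lists of marker genes on a log axis, with 1 point per mouse, A3 as a triangle pointing down and A4 as a triangle pointing up. A4 stands above all other mice in simple and stratified epithelium (22.2), lung epithelium (20.2), thymic epithelium (85.5) and thymocytes (972), and A3 is lowest in the mesothelial sum (17.1) while lying among the others in smooth muscle.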

How the data were processed

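Stranded total RNA from thoracic aorta, depleted of ribosomal RNA, was sequenced on both ends of the fragments. The authors deposited raw counts per gene symbol, without normalization, for 25284 genes in 12 mice. The submitters' processing notes name CASAVA 1.8.2, STAR 2.5.2b, HTSeq 0.6.1p1 and mm10, without their roles or the strand setting. Rows that name no gene (reads on no gene, 8.02% to 14.9% per mouse, ambiguous reads, 0.606% to 0.698%, and reads aligned to several places, 18.1% to 23.2%) entered neither library sizes nor tests. Groups came from the labels, which give no batch. The column names end in a number from 1 to 12 of no given meaning (controls hold 3 to 7 and 12). No libraries were copies (chi-square of at least 11.6 per degree of freedom).

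Counts were tested with edgeR 4.0.16 in R 4.3.3 (filterByExpr, TMM, quasi-likelihood test, no covariate), with Benjamini-Hochberg adjustment over 15857 genes at 10% FDR, the threshold of the study. SE is the log2 fold change divided by the root of F. DESeq2 1.42.0, the study's tool, and limma-voom 3.58.1 were alternatives. CPM used TMM library sizes, and log2 CPM a prior count of 2. Single differences used exact permutation over 924 assignments, and correlations 100000 resamples, whose smallest p is 1e-05. The steps were tested on simulated data. The genes and the lists of other cell types were chosen with earlier results of these data known. Named were the 9 genes, the other mesothelial genes with the smallest and largest p, the 12 genes most like the 9, and marker lists by their sums, of which 1 is not reported here. Fits without both A3 and A4, limma-voom without either, the sum without Krt8 and Krt18, and relations without A3 or A4, were chosen after seeing the data. Alternatives are given in the closing section.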

Additional observations from a re-analysis of the deposited data

Results flagged for a closer look

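Each value was set against the other 5 mice of its group on the log2 CPM scale (for lists, log2 of the summed CPM), and was singled out where the gap to its nearest neighbour was over 0.625 of the range of the group (Dixon's 95% value for 6 mice). Of 64 groups of 6 values looked at, 13 were singled out, where chance gives about 1 in 20, or 3.2. The groups are not independent, since many genes vary together and A3 and A4 recur. The 13 are therefore not separate events, and their number cannot be weighed against 3.2.

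A3 was far below the other AZ6983 mice in Msln at -0.99 (others 2.19 to 2.89), Upk3b at -1.11 (others 2.28 to 3.44), Upk1b at -3.18 (others 0.29 to 1.49), Wt1 at -1.11 (others -0.23 to 0.28) and Bnc1 at -2.74 (others -0.15 to 0.87). A4 was far above the other AZ6983 mice in Krt8 at 5.07 (others at most 0.33) and Krt18 at 5.56 (others at most 2.81). Among the lists, A4 was also far above in simple and stratified epithelium at 4.47 (others at most 1.56), lung epithelium at 4.34 (others at most 1.63), thymic epithelium at 6.42 (others at most 1.90) and thymocytes at 9.93 (others at most 5.24). The remaining 2 concern a list only: brown fat in C6 at 11.36, the lowest control, and brown fat in A5 at 12.44, the highest AZ6983 mouse. The causes were not tested.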

How the results depend on the processing

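The count of called marker genes (0 of 9) and of called other mesothelial genes (0) was the same under DESeq2 on every gene, limma-voom with and without quality weights, RLE factors, library totals, 5% FDR, all genes kept, genes with a mean of at least 50 counts kept, the no-gene share as covariate, each mouse left out and both A3 and A4 left out. The filter on a mean of at least 50 counts kept 7 of the 9 marker genes, without Wt1 and Upk1b. Krt8 passed it only through its 1257 counts in A4, since the other mice held 8 to 64 counts with a median of 21. No paired analysis was possible because the labels give no replicate numbers that the groups share. The median log2 fold change of the 9 genes moved to 0.84 with the no-gene share of reads as covariate, and Upk3b (0.74) and Krt19 (0.84) changed sign there. That share is higher in AZ6983 mice, so the covariate and the treatment are partly confounded. The sign of a log2 fold change also turned for Msln (-0.041) and Upk1b (-0.37) in limma-voom, for Msln (-0.33), Upk1b (-0.84) and Gpm6a (-0.046) in limma-voom with quality weights, for Upk1b (-0.021) with library totals, and for Krt8 (-0.19) and Krt18 (-0.37) without A3 and A4. As a difference of mean CPM without logarithm, Msln was 0.567 and Upk1b 0.0280, both positive where the log2 difference was negative.

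With each mouse left out, the log2 fold change ranged from -0.35 to 0.19 for Upk3b, -0.27 to 0.34 for Upk1b, -0.0078 to 0.29 for Wt1, -0.36 to 3.11 for Krt8, -0.40 to 1.16 for Krt18, -0.48 to 0.091 for Krt19 and -0.037 to 0.12 for Gpm6a. It stayed positive for Msln, from 0.00023 to 0.41, and for Lrrn4, from 0.14 to 0.56. The difference in mean log2 CPM ranged from -0.26 to 0.53 for Msln, -0.63 to 0.28 for Upk3b, -0.57 to 0.37 for Upk1b, -0.0091 to 0.34 for Wt1, -0.18 to 1.08 for Krt8, -0.39 to 0.40 for Krt18, -0.39 to 0.081 for Krt19 and -0.047 to 0.12 for Gpm6a. The direction of Krt8 and Krt18 turned without A4.

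Among correlations, that of Krt18 with Gpm6a was -0.016 without A4. Those of Gpm6a with Upk3b, Upk1b, Wt1 and Krt19 were 0.44 to 0.58 without A3. The sign of r for Msln turned within controls for lung epithelium (-0.64), thymocytes (-0.63), cardiac muscle (-0.24), brown fat (-0.11), white fat (-0.22), smooth muscle (0.61) and endothelium (0.80). It turned within AZ6983 mice for lymphatic endothelium (0.064) and the no-gene share of reads (0.13), and without the 2 mice farthest from the median for neurons and Schwann cells (0.041), lymphatic endothelium (0.23) and endothelium (0.41). Of the 12 genes most like the 9, 10 were shared with library totals and 7 without A4. Low counts limit Wt1, Upk1b, Krt8 outside A4 and, in A3, Msln and Upk3b.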

Other observations

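Calb2, which encodes the calcium-binding protein calretinin and marks mesothelium as well as some neurons, was found mainly in 2 of the 12 mice. It had 69 counts in C3 (2.38 CPM) and 15 in C6 (0.510 CPM), and at most 4 counts in any other mouse. C3 and C6 were not the mice with the most Msln, at 6.38 and 3.71 CPM. They were the mice with the most Th, the enzyme that makes catecholamines in sympathetic neurons, at 131 and 62.8 CPM, against at most 50.1 CPM in the others. Dmkn, a secreted protein of epidermis and mesothelium, was also highest in these mice, at 5.59 and 3.30 CPM, followed by A1 at 2.56 CPM, the mouse with the next highest Th, which had 0 counts of Calb2. These values were singled out after they were seen, and a relation to Th was not tested. Between the treatment groups, the difference in mean log2 CPM gave an exact permutation p = 0.422 for Calb2, which is 1 of the 2 genes that DESeq2 counted at an unadjusted p under 0.05 (p = 0.0196), and 0.413 for Dmkn (edgeR adjusted p = 0.624).

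Muc16, the mucin known as CA125 and made by mesothelium, did not pass the filter of edgeR, with 1 to 26 counts per mouse. Its highest values were 0.967 CPM in C4 and 0.585 CPM in A4, which also led in the standardized mean of the 9 marker genes, and its lowest was 1 count in A3.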
